A study of Mus musculus with 8 samples.

Results

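10 immediate early genes of mouse embryonic stem cells (mESCs) are described here across spaceflight, Rad9 genotype and culture duration. They are the Fos family (Fos, Fosb, Fosl1 and Fosl2), the Jun family (Jun, Junb and Jund) and Egr1, Egr2 and Egr3. The genes were chosen by name, and all 10 were found among the 50686 Ensembl identifiers of the count table by matching symbols to identifiers. All 10 also passed the filter on low counts that left 20473 genes for testing.

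RNA from 8 cultures was sequenced, 1 library for each combination of location (space or ground), genotype (R9wt, wild-type mESCs, or R9del, Rad9-/- mESCs lacking a subunit of a DNA damage checkpoint clamp) and culture duration (1 day, D1, or 5 days, D5). The space group flew on a recoverable satellite, and the ground group was grown in the same kind of payload with the same procedure. No condition had a replicate, so each comparison set 4 libraries against 4 others that also differed among themselves in the remaining variables, and its p-values measure that spread. Nothing states that R9wt and R9del each came from more than 1 cell line, so the genotype cannot be told apart from the line. The D1 and D5 cultures sat in different device groups with a temperature controller each and were seeded at different cell numbers. For D5, R9del was also seeded at a higher number than R9wt. Microgravity, radiation and the vibration of launch and return all separated the space group from the ground group and cannot be told apart. All cells were fixed in RNAlater inside the devices and kept cold until the RNA was extracted.

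Fos and Jun proteins are bZIP transcription factors that pair with each other to form the AP-1 dimer; Jun proteins can also pair among themselves, whereas Fos proteins need a partner. Egr proteins bind GC-rich sites through zinc fingers. Most of these genes are switched on within minutes of a growth factor, stress or mechanical stimulus, through ERK, JNK and p38 kinases acting on SRF, its ETS partners such as Elk1, and CREB or ATF factors, and most of their mRNAs are short-lived. In mESCs, ERK signalling from FGF is a known source of Egr1 and Fos expression.

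The sequences upstream of 4 of these genes are shown because they are the genes that passed 2-fold at an unadjusted p under 0.05 between space and ground: Jun and Junb lower in space, Fos and Egr2 higher in space. RefSeq's promoter table (build GRCm38.p6) held entries for 7 of the 10 genes, and those entries were placed on the mm9 genome by exact match. Each line gives the 250 bases before the RefSeq start, 5′ to 3′ on the gene's strand, for Jun (chr4:94718914-94719163, minus strand), Junb (chr8:87502648-87502897, minus strand), Fos (chr12:86814590-86814839, plus strand) and Egr2 (chr10:67000367-67000616, plus strand; 1 of its 5 entries, shown because it alone holds both motifs and no base of the annotated Egr2 exons). Capitals mark matches to the motifs searched.
Jun: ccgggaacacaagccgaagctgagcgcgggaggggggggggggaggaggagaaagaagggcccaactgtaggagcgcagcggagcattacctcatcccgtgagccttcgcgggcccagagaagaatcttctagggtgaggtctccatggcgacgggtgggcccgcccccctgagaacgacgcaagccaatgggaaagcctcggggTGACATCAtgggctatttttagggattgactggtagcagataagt
Junb: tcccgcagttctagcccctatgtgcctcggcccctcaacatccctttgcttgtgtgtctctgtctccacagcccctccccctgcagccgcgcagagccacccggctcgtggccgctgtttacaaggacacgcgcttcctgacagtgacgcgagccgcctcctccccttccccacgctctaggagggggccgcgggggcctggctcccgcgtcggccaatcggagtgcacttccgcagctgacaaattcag
Fos: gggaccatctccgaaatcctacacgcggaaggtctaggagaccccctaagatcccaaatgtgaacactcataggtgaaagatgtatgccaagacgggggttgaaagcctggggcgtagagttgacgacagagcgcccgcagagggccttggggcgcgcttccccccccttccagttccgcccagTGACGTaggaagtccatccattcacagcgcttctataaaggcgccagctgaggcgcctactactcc
Egr2: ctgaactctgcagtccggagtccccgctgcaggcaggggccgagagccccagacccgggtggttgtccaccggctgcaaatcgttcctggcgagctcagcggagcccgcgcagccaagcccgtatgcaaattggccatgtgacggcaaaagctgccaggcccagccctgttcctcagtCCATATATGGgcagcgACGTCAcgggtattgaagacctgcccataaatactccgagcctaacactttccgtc
Both strands of the 300-base windows, which also hold the 50 bases after the start, were searched for the CArG box bound by SRF, for TGACNTCA and TGACGT (CRE-like, the letters of 1 can lie inside the other), for TGANTCA (the AP-1 site) and for GCGNGGGCG (the Egr site). The Jun window held TGACATCA at position -45, counted back from -1 at the base before the start. The Fos window held TGACGT at position -66. The Egr2 window held the CArG box CCATATATGG at position -72 and ACGTCA, the reverse complement of TGACGT, at position -56. Of the other Egr2 entries, 1 held no motif, 1 held another CArG box (CCTTTTTTGG) without TGACGT, and 2 overlap the window shown and hold the same letters. None of the 5 motifs lay in the Junb window. Of 32544 mouse promoter windows of the same length, 1.64% held a CArG box, 8.62% TGACNTCA, 7.55% TGACGT, 7.79% TGANTCA and 5.6% GCGNGGGCG. GCGNGGGCG was also present once each in the windows of Fosb (position -50) and Fosl2 (position -79). A match is a description of letters and not of binding.

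On mm9, Jun (chr4:94715725-94718913), Junb (chr8:87500811-87502617) and Jund (chr8:73221638-73224515) each consist of 1 exon without introns. Fos (chr12:86814840-86818223), Fosb (chr7:19888070-19895394), Fosl1 (chr19:5447703-5455945) and Fosl2 (chr5:32438845-32460204) have 4 exons each, Egr2 (chr10:66998223-67004936) has 5 exon blocks over all its transcripts and Egr3 (chr14:70477252-70479964) has 3. Whether the counting used the strand of a read was not given in the sources used here, so the reads of overlapping genes could be shared. Exons of Ccdc85b on the opposite strand cover 68.1% of the Fosl1 exon length, and the counts of Ccdc85b were not analysed here. Gm11175 covers 18.9% of Jund but had 0 counts in every library, and BC042782 covers 7.28% of Jun with at most 24 counts in a library. In Jund, 4.95% of the 31-base words of the exons occur elsewhere in the genome.

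Library totals lay between 58238440 and 96416907 counts, and a count of 3, the limit that 0 counts allows, corresponds to 0.0335 to 0.0503 CPM (read counts scaled for the size of the library, with TMM factors), for counting error only. Checked against markers of the label, the 8 embryonic stem cell markers summed to between 4352 and 7819 CPM, with Dppa5a, Pou5f1 and Tdgf1 the most abundant. Fibroblast markers summed to 24.9 to 66.2 CPM with 4 of 8 below 1 CPM in every library, and the blood markers to at most 2.98 CPM with Hbb-bs at 0. Rad9 itself read 20.8 to 28.6 CPM in the R9del libraries and 70.3 to 93.4 CPM in the R9wt libraries. Reads of the gene thus remained in R9del at a lower level. The count covers the whole gene, and the deleted part was not examined here. In bulk RNA, fewer cells expressing a gene and less RNA of it per cell cannot be told apart.

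Per kilobase of exon and averaged over the 8 libraries, Junb was the most abundant of the 10 genes at 45.6 ± 39.8 CPM per kb (SD, n = 8). Egr1 followed at 17.7 ± 12.7, Jun at 13.8 ± 14.7 and Fos at 11.9 ± 10.8 CPM per kb. Fosl1 (5.40 ± 5.38), Jund (4.33 ± 3.54), Egr2 (1.58 ± 2.17) and Fosl2 (1.26 ± 0.443) came next, and Fosb (0.177 ± 0.164) and Egr3 (0.158 ± 0.154 CPM per kb) were the lowest. Neighbours in this order differed by less than the larger of their SDs, except Fosl2 and Fosb. The order pools ground and space and was not that of the space libraries. There Egr1 exceeded Junb in R9del D1 (39.97 against 17.35 CPM per kb), R9del D5 (29.7 against 11.1) and R9wt D5 (22.4 against 10.5). Fos was the highest in space R9wt D5 (35.0). Of the space libraries, only R9wt D1 had Junb as the highest (6.61). The spread among conditions was wide: the highest library exceeded the lowest by 5.01-fold for Fosl2, by 15.5-fold for Junb, by 17.1-fold for Jun and by 102-fold for Egr2.

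**Figure D1:**
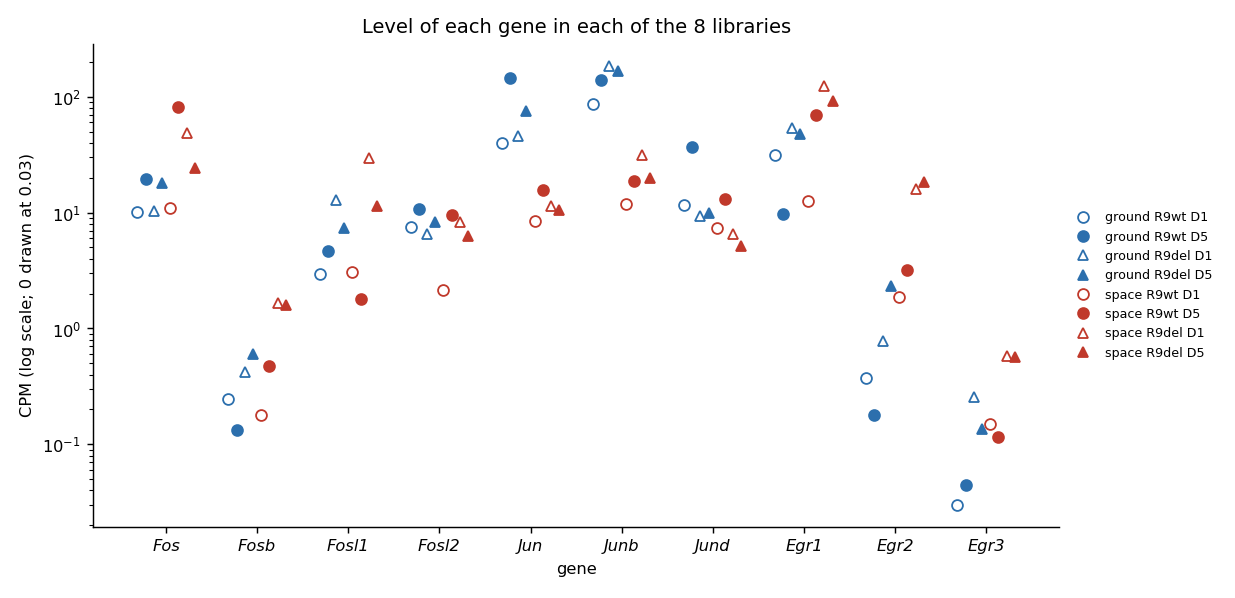
CPM (log scale) of each of the 10 genes in each of the 8 libraries; blue is ground and red is space, circles are R9wt and triangles R9del, open symbols D1 and filled symbols D5. The 4 space libraries lie below the 4 ground libraries for Jun and Junb, and the 4 R9del libraries lie above the 4 R9wt libraries for Fosl1.

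The first comparison asked how the space group differed from the ground group. The mRNAs of Jun and Junb, which encode subunits of the AP-1 dimer, were lower in space, while most Fos and Egr genes had higher values there. Of the 10 genes, 2 passed as lower in space at a 2-fold or larger change with an adjusted p below 0.05, against 5.03% of all tested genes, and 0 passed as higher, against 0.523%. At the study's threshold of an unadjusted p under 0.05, edgeR's quasi-likelihood test gave 2 lower (Jun and Junb; 8.38% of all tested genes) and 2 higher (Fos and Egr2; 2.58%). DESeq2's Wald test called Fos and Egr2 higher and Jun and Junb lower after adjustment, and it also called more genes in all, 1.79% higher and 6.6% lower.

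Junb, an AP-1 subunit that can oppose Jun at some target genes, was per kilobase the most abundant of the 10 genes in every ground library. In the ground group it read 87.3 CPM in R9wt at D1, 139 in R9wt at D5, 185 in R9del at D1 and 166 in R9del at D5. In the space group it read 11.95, 18.9, 31.4 and 20.1 CPM in the same order. The ground group thus ran from 87.3 to 185 CPM and the space group from 11.95 to 31.4 CPM, without overlap. The means were 20.6 ± 8.04 CPM in space and 144.3 ± 42.3 CPM on the ground (SD, n = 4 each; exact two-sided permutation test p = 0.0286, the smallest that 4 libraries against 4 can give). The fitted log2 fold change was -2.81 ± 0.35 (SE), 7.01-fold lower, with an adjusted p of 0.000806 in edgeR's quasi-likelihood test. The 4 matched pairs gave nearly the same difference, with log2 ratios from -3.04 to -2.56.

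Jun, the AP-1 subunit activated by JNK, changed by a similar size. It read 39.5 CPM in ground R9wt D1, 145 in ground R9wt D5, 45.6 in ground R9del D1 and 75.9 in ground R9del D5. The space libraries read 8.45, 15.7, 11.5 and 10.6 CPM in the same order, all below the lowest ground library. The log2 fold change was -2.73 ± 0.43 (SE), 6.61-fold lower, with an adjusted p of 0.00398 in edgeR's quasi-likelihood test (exact permutation p = 0.0286, unadjusted for the other genes). The matched pairs ranged from -3.20 to -1.98 on the log2 scale. Jun and Junb were the 2 genes of the 10 whose groups did not overlap, both lower in space, a pattern that 9.37% of all tested genes also had. None of the 10 lay wholly higher in space, against 5.07% of all tested genes.

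Jund, the Jun family member that is usually expressed without a stimulus, did not pass. It read 11.6, 36.8, 9.30 and 10 CPM on the ground (R9wt D1, R9wt D5, R9del D1, R9del D5) and 7.33, 13.0, 6.51 and 5.16 CPM in space. Each space library was below its matched ground library, but the groups overlapped through the space R9wt D5 library. The log2 fold change was -1.08 ± 0.51 (adjusted p = 0.294, edgeR quasi-likelihood test). Without the ground R9wt D5 library it was -0.36.

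Over all tested genes, the difference between space and ground varied with base composition. All tested genes with a GC value were put into 10 equal bins by the GC content of their exons. The highest bin (57.9 to 73.9%) had a median log2 fold change of -0.42 and the lowest bin (17.1 to 41.9%) one of -0.26, while bins 2 to 7 had medians between 0.04 and 0.18 and bins 8 and 9 had 0.01 and -0.05. Junb (62.7% GC) and Jund (62.7%) were in that highest bin, and so were Egr3 (62.5%) and Fosl1 (57.9%), whose fitted values were positive. Jun (55.5%) was in bin 8, with its median of 0.01. With a per-library GC offset, Junb was -1.82 (adjusted p = 0.0163), Jun -2.60 (adjusted p = 0.00372) and Jund 0.02 (adjusted p = 0.988) in edgeR's quasi-likelihood test. Over all alternatives that kept the 8 libraries, the adjusted p ranged from 6.6e-12 to 0.0163 for Junb, from 4.88e-08 to 0.00744 for Jun and from 0.0834 to 0.988 for Jund. With an offset on the GC content of the most GC-rich 200 bases of each gene instead, Junb was -2.72 (adjusted p = 0.0016), Jun -2.35 (adjusted p = 0.00744) and Jund -0.75 (adjusted p = 0.46). Jun and Junb thus passed with either offset, and the sizes for Junb and Jund depended on which was used.

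**Figure D2:**
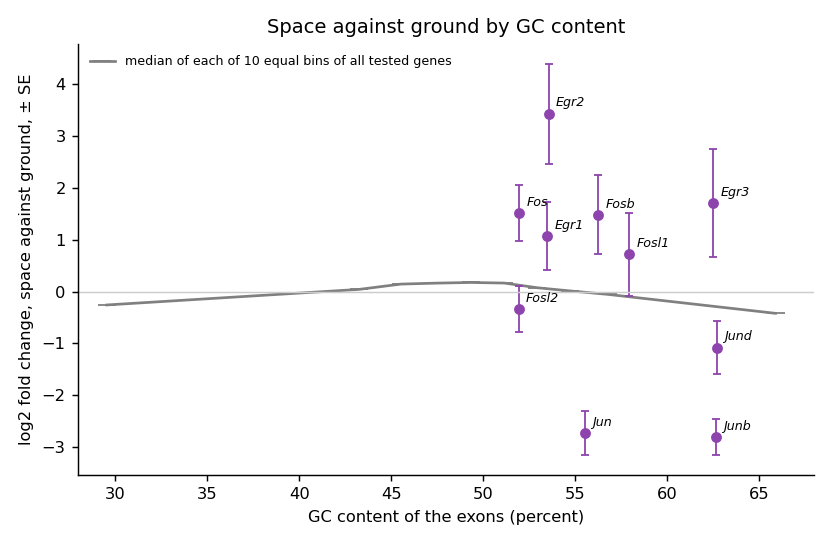
Log2 fold change of space against ground with its SE (vertical axis) against the GC content of the exons (horizontal axis, percent) for the 10 genes; the grey line joins the medians of 10 equal bins of all tested genes ordered by GC. Jun and Junb lie at -2.73 and -2.81, below the grey line, whose lowest point is -0.42.

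Of the Fos family, Fos had the highest mean level and was the one gene with the same sign in all 4 pairs. The ground libraries read 10.1 CPM (R9wt D1), 19.6 (R9wt D5), 10.4 (R9del D1) and 18.0 (R9del D5). The space libraries read 10.96, 82.4, 48.8 and 24.2 CPM in the same order. Every space library was above its matched ground library, but space R9wt D1 lay within the ground range, and the highest levels were in R9wt at D5 and in R9del at D1. The log2 fold change of 1.52 ± 0.55 did not pass (adjusted p = 0.159, edgeR quasi-likelihood test; exact permutation p = 0.114). Without the space R9wt D1 library it passed, at 1.84 with an adjusted p of 0.0435, and with DESeq2's Wald test at 1.57 with an adjusted p of 0.0383, the lowest of its alternatives over the 8 libraries (highest 0.235).

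Fosb, the Fos relative known for its long-lived truncated form in neurons, was low, with 12 to 117 counts in a library. It read 0.244, 0.134, 0.419 and 0.601 CPM on the ground (R9wt D1, R9wt D5, R9del D1, R9del D5) and 0.179, 0.475, 1.66 and 1.59 CPM in space. The 2 highest values were those of the R9del space libraries, and the log2 fold change was 1.48 ± 0.77 (adjusted p = 0.347, edgeR). Fosl1 (Fra-1), which lacks the transactivation domain of Fos, had a log2 fold change of 0.72 ± 0.81 (adjusted p = 0.713). Its direction rested on the space R9del D1 library, without which it was -0.37. Fosl2 (Fra-2) read 6.52 to 10.8 CPM on the ground and 2.15 to 9.52 CPM in space, with the space R9wt D1 library alone below 6 CPM and a log2 fold change of -0.33 ± 0.44 (adjusted p = 0.762).

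The Egr genes were higher in space in most pairs. Egr2 (Krox20) had the largest fitted difference of the 10 genes. It read 0.372, 0.179, 0.778 and 2.32 CPM on the ground (R9wt D1, R9wt D5, R9del D1, R9del D5), from 32, 16, 52 and 170 counts. In space it read 1.88, 3.23, 16.1 and 18.3 CPM in the same order. Each space library was above its matched ground library by at least 4.77-fold, and the groups overlapped because ground R9del D5 exceeded space R9wt D1. The log2 fold change was 3.43 ± 0.97 (adjusted p = 0.0704, edgeR quasi-likelihood test; exact permutation p = 0.0571), past the fold but not the adjusted threshold. Blocked on the matched pairs it was 3.45 with an adjusted p of 0.00269, and without the ground R9del D5 library it was 4.49 with an adjusted p of 0.0446, both past the threshold. Over all alternatives with the 8 libraries, the adjusted p of Egr2 ranged from 0.000595 to 0.0984.

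Egr1 (Krox24, Zif268), a standard readout of ERK signalling, read 31.3, 9.77, 53.4 and 47.4 CPM on the ground (R9wt D1, R9wt D5, R9del D1, R9del D5). In space it read 12.5, 69.6, 124 and 92.1 CPM. R9wt at D1 was the exception: there the space library was lower, with a log2 ratio of -1.32, whereas R9wt at D5 had a ratio of 2.83 in the other direction. The log2 fold change over the 4 libraries each was 1.07 ± 0.65 (adjusted p = 0.438, edgeR). Egr3 had 0 to 17 counts in the ground libraries and 7 to 41 in the space libraries. Its 0.583 and 0.570 CPM in space R9del (D1 and D5) were the highest values, and the log2 fold change of 1.71 ± 1.04 did not pass (adjusted p = 0.44, edgeR). The Egr3 value was 2.62 with the GC offset (adjusted p = 0.241, edgeR). With that offset and a block on the matched pairs it was 2.99 (adjusted p = 0.0781, edgeR). Leaving out 1 library moved it to between 1.29 and 2.54.

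**Figure D3:**
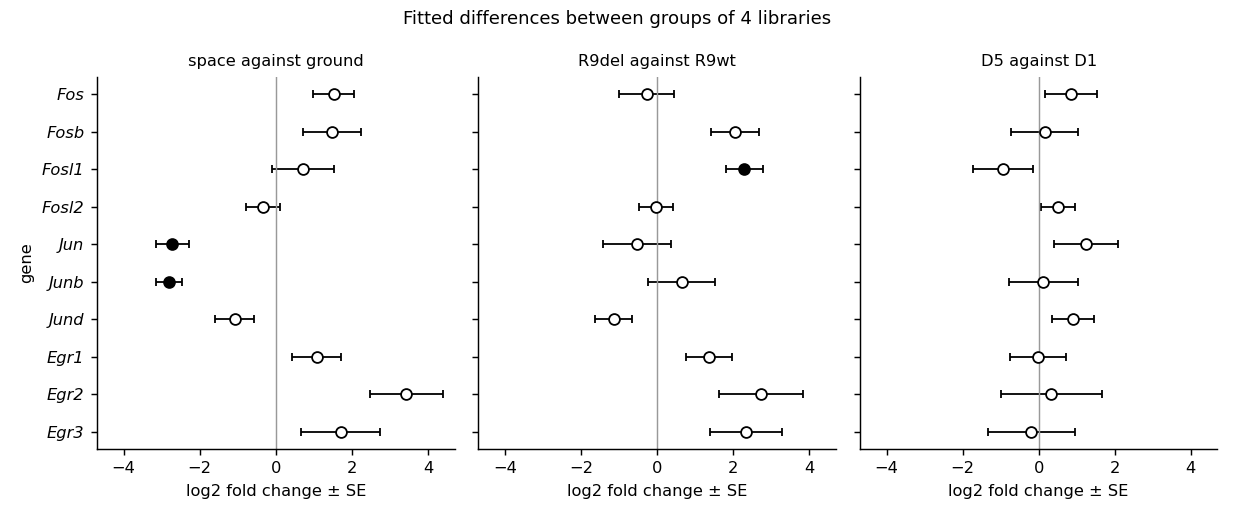
Fitted log2 fold changes (horizontal axis) with their SE for the 10 genes in the 3 group comparisons, 4 libraries against 4 in each; filled points passed (2-fold or more, adjusted p below 0.05). Jun and Junb are filled for space against ground at -2.73 and -2.81, and Fosl1 for R9del against R9wt at 2.29.

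The proportions of the AP-1 families differed accordingly. Summed per kilobase, the 3 Jun genes read 64.7 to 135 CPM per kb in the ground libraries and 11.8 to 23.2 CPM per kb in the space libraries. The 4 Fos genes read 7.35 to 13.6 CPM per kb on the ground and 6.87 to 40.0 CPM per kb in space. Jun family mRNA made up 89.8% (R9wt D1), 91.3% (R9wt D5), 90.1% (R9del D1) and 89.8% (R9del D5) of the Fos and Jun sum in the ground group. In the space group these shares were 63.2%, 34.5%, 36.7% and 46.9%. The ground shares lay between 89.8 and 91.3%, and every space share lay below them. Fos family mRNA exceeded Jun family mRNA in 3 of the 4 space libraries, but in 1 of the 4 (R9wt D5) without Fosl1, most of whose exon length is shared with Ccdc85b. Without Fosl1 the Jun shares were 92 to 95.5% on the ground and 35.1 to 69.9% in space, still without overlap. Within the Jun family, Junb made up 57.0 to 85.4% on the ground and 52.6 to 74.7% in space, so the groups overlapped in that share. These sums are given without a test, since they rest on the levels of Jun, Junb and Fos above. They carry no GC offset, and the fitted difference of Junb between space and ground was -1.82 with that offset and -2.81 without. The shares with an offset were not computed.

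**Figure D4:**
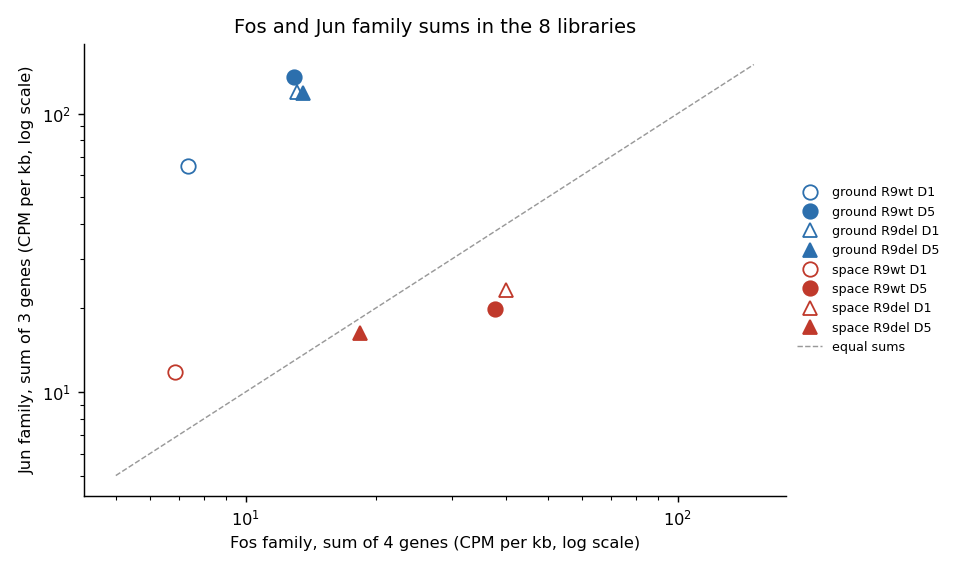
Sum of the 3 Jun genes (vertical axis) against the sum of the 4 Fos genes (horizontal axis), both in CPM per kb on log scales, 1 point per library; the dashed line marks equal sums. The 4 ground libraries lie above the line at 64.7 CPM per kb or more of Jun family mRNA, and the space libraries at 23.2 or less.

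Several other immediate early genes were also lower in space. Of 20 listed, 19 were tested, and 5 passed as lower in space and 0 as higher, beside 5.03% and 0.523% of all tested genes: Dusp1, a MAP kinase phosphatase, Ier2, Maff, a small Maf protein, Ier5 and Egr4. Dusp1 averaged 23.0 ± 14.5 CPM in space and 215.8 ± 44.1 on the ground (log2 fold change -3.23 ± 0.42, adjusted p = 0.00113, edgeR). Ier2 averaged 48.0 ± 23.6 and 384 ± 140.2 CPM (-3.00 ± 0.44, adjusted p = 0.00254), and Maff 4.46 ± 1.84 and 31.2 ± 19.4 CPM (-2.81 ± 0.55, adjusted p = 0.0128; SD, n = 4 each). Without an offset these 3 genes were lower by a size similar to that of Jun and Junb, and they passed under all 18 alternatives. With the GC offset the sizes were less alike: -3.23 for Dusp1, -2.30 for Ier2 and -2.46 for Maff. Jun and Junb then had -2.60 and -1.82. Ier5 (-2.04 ± 0.51, adjusted p = 0.0419) passed under 10 of the 18, and not when any library other than ground R9del D1 or space R9wt D5 was left out. Egr4, the fourth Egr gene, had 0 counts in the 4 space libraries and 40 to 60 in each ground library, at least 13.4-fold lower in space against a floor of 3 counts per library. With positive values, Ccn1 (1.40 ± 0.67, adjusted p = 0.304), Arc (1.26 ± 0.64, adjusted p = 0.336) and Atf3 (1.06 ± 0.42, adjusted p = 0.205) did not pass; these 3 were named after their values were seen. The most abundant others, Btg2 (0.69 ± 0.37), Klf10 (0.30 ± 0.19) and Klf6 (0.64 ± 0.29), did not pass either. The median over the 19 genes was 0.21 and over the 10 Fos, Jun and Egr genes 0.89, beside 0.01 over all tested genes.

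**Figure D5:**
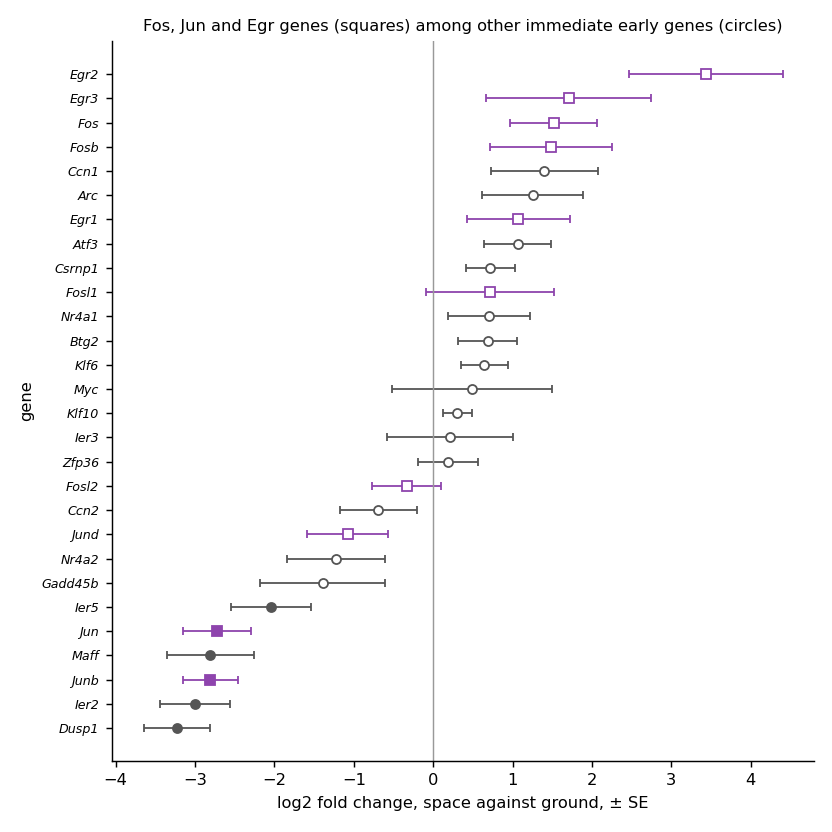
Log2 fold change of space against ground with its SE (horizontal axis) for the 10 Fos, Jun and Egr genes (squares) and the other tested immediate early genes except Egr4, which had 0 counts in space (circles); filled symbols passed. The filled symbols, Dusp1, Ier2, Junb, Maff, Jun and Ier5, all lie at -2.04 or below.

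Among the factors upstream, 17 were tested, 2 passed as lower and 0 as higher in space, beside 5.03% and 0.523% of all tested genes. Map2k2 (MEK2), a kinase directly above ERK, averaged 21.7 ± 6.66 CPM in space and 98.8 ± 35.3 on the ground (log2 fold change -2.19 ± 0.35, adjusted p = 0.00436, edgeR). Elk1, the ETS partner of SRF, had -1.16 ± 0.24 (adjusted p = 0.0181), and its call was lost without any 1 of 4 libraries (ground R9wt D1, ground R9del D5, space R9wt D5 or space R9del D1). The related Map2k1 (MEK1) had 0.16 ± 0.24 (adjusted p = 0.808) and Srf -0.01 ± 0.36 (adjusted p = 0.996), and Mapk3 had -0.33 ± 0.28 (adjusted p = 0.608). Further genes kept 1 sign in all 4 pairs without passing. Among them, Mrtfa (0.76, adjusted p = 0.0861) and Mrtfb (0.99, adjusted p = 0.19) were higher in space. Rps6ka5 (-0.93, adjusted p = 0.0811) and Mapk9 (-0.95, adjusted p = 0.115) were lower. Of the 17 genes, 7 had positive and 10 negative values. Of 11 tested bZIP partners, 1 passed as lower (5.03% of all tested genes), Crem (-1.12 ± 0.28, adjusted p = 0.0455), under 3 of 18 alternatives and with no library left out. Mafg, the most abundant tested partner, was higher in space in all 4 pairs without passing (0.73 ± 0.21, adjusted p = 0.0732). The Atf2 value was 0.07 ± 0.25 (adjusted p = 0.929). Of the 11 partners, 5 had positive and 6 negative values. None of the Egr corepressors (Nab1 and Nab2), of the 5 tested genes for binders of AU-rich mRNA elements or of the 6 tested target genes of AP-1 passed. At an unadjusted p under 0.05 and a 2-fold change these 3 lists had 0, 1 (Elavl1, lower) and 1 (Plau, higher), beside 8.38% lower and 2.58% higher of all tested genes. Elavl1 (HuR), which stabilizes AU-rich mRNAs such as Fos, had a log2 fold change of -2.14 ± 0.76 (adjusted p = 0.154), and the most abundant tested targets, Ccnd1 (0.07 ± 0.57) and Plaur (0.53 ± 0.41), did not pass.

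Single markers of cell state passed for location, beside 0.523% of all tested genes called higher and 5.03% called lower in space. Most of the other tested members of the lists that hold these markers had the opposite sign. Of the 8 embryonic stem cell markers, Esrrb, a pluripotency factor, passed as higher in space (log2 fold change 1.16), but 5 of 8 had negative values, with a list median of -0.38. Among these, Sox2 had -0.97 (adjusted p = 0.0269, below the 2-fold limit) and Utf1 -0.86 (adjusted p = 0.056), each lower in all 4 pairs. Of the 6 primitive endoderm markers, Sox17 passed as lower (-3.92) and 4 had positive values, among them Pdgfra (1.78, adjusted p = 0.0925) and Sox7 (1.53, adjusted p = 0.507). Of the 2 tested trophoblast markers, Cdx2 passed as lower (-3.02) and Hand1 had 0.88 (adjusted p = 0.735) in edgeR's test. The Sox17 call was lost without ground R9del D5, space R9del D1 or space R9del D5, and the Cdx2 call without any 1 of 5 libraries (ground R9wt D5, ground R9del D1 and the space libraries other than R9wt D5) and also with the offset on the most GC-rich window. The summed markers overlapped between space and ground for every list: embryonic stem cell 4352 to 5876 against 5159 to 7819 CPM, primitive endoderm 10.4 to 83.3 against 17.8 to 33.1, mesendoderm 6.18 to 33.5 against 6.997 to 17.0, trophoblast 2.42 to 114 against 2.83 to 64.2, neural 15.2 to 37.5 against 16.6 to 32.5, and fibroblast 27.5 to 66.2 against 24.9 to 61.1 CPM. The part of these cell states in the levels of Jun and Junb was not tested.

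In pairs of single libraries that differ only in location, with no replicate and therefore no test, members past 2-fold were counted beside all tested genes. In R9del at D1, 8 of the 10 genes were past 2-fold (6 higher and 2 lower in space), against 22.7% of all tested genes. In R9del at D5 there were 5 (3 higher, 2 lower; 24.9%), in R9wt at D1 6 (2 higher, 4 lower; 35.3%) and in R9wt at D5 8 (4 higher, 4 lower; 38.2%). Jun and Junb were lower and Egr2 was higher past 2-fold in all 4 pairs. Fos was past 2-fold only in R9wt at D5 and R9del at D1. Among the 2 genes higher in R9wt at D1 was Egr3, at 10 counts against 0, a ratio that rests on the prior count of 2.

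The second comparison asked how R9del differed from R9wt. Fosl1 alone of the 10 genes passed as higher in R9del, by a call close to the threshold that was lost with any library left out. Fosb, Egr1, Egr2 and Egr3 were higher in R9del in all 4 matched pairs without passing. Of the 10 genes, 1 passed as higher (1.04% of all tested genes) and 0 as lower (0.772%) after adjustment. At an unadjusted p under 0.05 there were 5 higher (Fosb, Fosl1, Egr1, Egr2 and Egr3; 6.19% of all tested genes) and 1 lower (Jund; 7.62%).

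Fosl1 read 12.8 CPM in ground R9del D1, 7.42 in ground R9del D5, 29.6 in space R9del D1 and 11.3 in space R9del D5. The R9wt libraries read 2.94, 4.69, 3.06 and 1.78 CPM in the same order. Every R9del library was above every R9wt library, a lack of overlap that no other gene of the 10 had here; 7.1% of all tested genes lay wholly higher and 7.19% wholly lower in R9del. The log2 fold change was 2.29 ± 0.49 (SE), 4.90-fold higher, with an adjusted p of 0.0488 in edgeR's quasi-likelihood test (exact permutation p = 0.0286). The call was close to the threshold: it was lost with any 1 of the 8 libraries left out (log2 fold changes from 1.75 to 2.56) and without the filter on low counts (adjusted p = 0.0609). Blocking on the matched pairs gave an adjusted p of 0.0286, and the alternatives over the 8 libraries ranged from 0.000118 to 0.0609. Most of its exon length is shared with Ccdc85b, as given above, and the part of that gene's reads was not tested.

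Egr2, at 0.778 and 2.32 CPM in ground R9del against 0.372 and 0.179 CPM in ground R9wt (D1 and D5), and at 16.1 and 18.3 CPM in space R9del against 1.88 and 3.23 CPM in space R9wt, was higher in R9del in each pair. Its log2 fold change of 2.73 ± 1.11 had an adjusted p of 0.21 in edgeR's quasi-likelihood test and of 0.0206 when blocked on the matched pairs (0.0174 to 0.261 over its alternatives with the 8 libraries). The highest Egr2 levels were thus in the libraries that combined space and R9del, and the lowest in R9wt on the ground. Egr3 had the same extremes, at 0 and 0.0447 CPM in ground R9wt and 0.583 and 0.570 CPM in space R9del. Between them the order differed: Egr3 in space R9wt (0.149 and 0.115 CPM) lay below ground R9del (0.254 and 0.137 CPM) at each day. These values came from 10 and 7 counts against 17 and 10, too few to settle the order. The log2 fold change of Egr3 was 2.33 ± 0.94 (adjusted p = 0.204, edgeR quasi-likelihood test). Egr1 had 1.36 ± 0.60 (adjusted p = 0.242) and Fosb 2.05 ± 0.63 (adjusted p = 0.119). With 1 library left out, Egr1 ranged from 1.06 to 2.16 and Egr2 from 2.18 to 3.54. Fosb passed with edgeR's exact test (adjusted p = 0.0406), which called 3.39% of all tested genes higher, and with DESeq2's Wald test (adjusted p = 0.0216), which called 4.17% higher; its adjusted p ranged from 0.0216 to 0.175 over the alternatives with the 8 libraries.

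No Jun family gene passed for genotype. Junb had a log2 fold change of 0.64 ± 0.88 (adjusted p = 0.729, edgeR), with every R9del library above its matched R9wt library, by 1.06-fold to 2.62-fold. Jun had -0.54 ± 0.90 (adjusted p = 0.783), and without the ground R9wt D5 library 0.76. Jund, with a log2 fold change of -1.15 ± 0.50 (adjusted p = 0.231), was lower in R9del in all 4 pairs, by 1.13-fold to 3.67-fold. With 1 library left out, Junb ranged from 0.17 to 1.35 and Jund from -1.38 to -0.46. The values of 1.35 and -0.46 were those without ground R9wt D5. Fos (-0.28 ± 0.71, adjusted p = 0.865) had opposite signs in the space pairs, with log2 ratios of 2.15 at D1 and -1.77 at D5. Fosl2 had -0.03 ± 0.45 (adjusted p = 0.979).

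In single pairs by genotype, 4 of the 10 genes were past 2-fold on the ground at D1 (all higher in R9del, against 25% of all tested genes) and 5 on the ground at D5 (4 higher, 1 lower; 33.4%). In space there were 8 at D1 (all higher; 35.7%) and 6 at D5 (4 higher, 2 lower; 27.7%). Egr2 and Egr3 were higher past 2-fold in all 4 pairs. The Egr3 ratios rest on few counts. On the ground these were 17 against 0 at D1, a ratio that rests on the prior count of 2, and 10 against 4 at D5. In space they were 41 against 10 at D1 and 34 against 7 at D5. Of the other immediate early genes, Myc, a growth regulator, passed as higher in R9del (61.1 ± 21.6 CPM against 7.84 ± 5.38 CPM in R9wt; SD, n = 4 each; log2 fold change 2.96 ± 0.57, adjusted p = 0.0415, edgeR). This call was kept under 11 of 18 alternatives and lost when any library other than ground R9wt D1 was left out. In the same list 1 of the 19, Myc, thus passed as higher and 0 as lower, beside 1.04% and 0.772% of all tested genes. The genes of the other pathway lists did not pass in this comparison.

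Whether the difference between space and ground was itself different in R9del and R9wt was tested by the interaction of location and genotype. None of the 10 genes passed (adjusted p = 1 for each, edgeR quasi-likelihood test). The interaction term was 0.12 ± 0.52 for Junb and 0.47 ± 0.63 for Jun on the log2 scale, and the largest was 1.76 ± 0.74 for Fosl1. Of all 20473 tested genes 0 passed an adjusted p under 0.05, 609 had an unadjusted p under 0.05, and DESeq2's Wald test called 12 with a positive and 11 with a negative term.

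The third comparison set D5 against D1. None of the 10 genes passed, adjusted or unadjusted, and none was without overlap between the groups. After adjustment 0% of all tested genes passed (0 in edgeR's quasi-likelihood test, with 895 at an unadjusted p under 0.05; 34 higher and 2 lower in edgeR's exact test; 78 higher and 12 lower in DESeq2's Wald test), and 3.49% were past 2-fold at an unadjusted p under 0.05. Wholly higher at D5 lay 1.68% and wholly lower 1.17% of all tested genes. Jun had the largest fitted value, 1.23 ± 0.84, with its highest level, 145 CPM, in ground R9wt D5. Jund (0.91 ± 0.55) also had its highest level, 36.8 CPM, in that library. Fos (0.85 ± 0.68) was higher at D5 in 3 of 4 pairs and lower in space R9del, and Egr1 (-0.02 ± 0.74) was higher at D5 in space R9wt, with a log2 ratio of 2.47, and lower in the other 3 pairs. Leaving out 1 library moved these fitted values to 0.38 to 1.64 for Jun, 0.12 to 1.20 for Jund, 0.01 to 1.78 for Fos and -0.39 to 0.76 for Egr1.

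By duration, single pairs had 1 of the 10 genes past 2-fold in ground R9del (Egr2, higher at D5, 15.3% of all tested genes) and 4 in ground R9wt (3 higher and 1 lower, 31.4%). Among those higher in ground R9wt was Egr3, at 4 counts against 0, a ratio that rests on the prior count of 2. In space there were 2 in R9del (Fos and Fosl1, lower at D5; 16.8%) and 4 in R9wt (all higher; 29.9%).

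Genes with the most similar pattern were sought for the most abundant member of each family, by Pearson correlation of log2 CPM over the 8 libraries among the 15249 tested genes that averaged 1 CPM or more. These correlations are descriptions over 8 points that share the design. For Junb the 5 highest were Iws1 (r = 0.99), Ssb (0.99), Fzr1 (0.99), ENSMUSG00000097518 (0.99) and Eif5 (0.99). For Egr1 they were Ywhag (r = 0.99), Cul5 (0.99), Zmiz1 (0.99), Fer (0.99) and Smarcal1 (0.98), and for Fos they were Zfp592 (r = 0.98), Efnb3 (0.95), Prx (0.95), 1110057K04Rik (0.95) and Parp4 (0.94). No other member of the 10 was among them.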

How the data were processed

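RNA from 8 mESC cultures was sequenced by the authors with paired-end reads of 100 bases, aligned to mm9 with TopHat2 2.0.9 and deposited as a table of counts per Ensembl gene, whole numbers without normalization. The program that counted the reads, its gene annotation and its use of strand were not given in the sources used here. FastQC and edgeR are also named in the submitters' processing notes. Totals ranged from 58238440 to 96416907 counts per library. All columns were used.

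From the counts, CPM were computed with edgeR 4.0.16 (R 4.3.3) and TMM factors over all genes. Group comparisons (4 libraries against 4, without covariates, as in the study) were tested in edgeR (quasi-likelihood) for the genes that filterByExpr keeps at a minimum count of 10, with Benjamini-Hochberg adjustment over all tested genes. A call is a 2-fold or larger change with an adjusted p below 0.05; the study's own threshold took the unadjusted p. The SE of a fold change is its size divided by the square root of the F statistic. Adjusted p-values come from that test unless another is named. The exact two-sided permutation test compared mean log2 CPM over all assignments of 8 libraries (scipy 1.17.1). Log2 CPM and the ratios of single libraries used a prior count of 2, and levels per kb used the exon length of the gene. The fitting code was tested on simulated data with known changes.

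The 10 genes and all lists were chosen with earlier results of these data known. Named were all 10 genes, list genes that passed a call, otherwise the 3 of a list with the highest mean CPM (not all are printed), and for the most abundant member of each family the 5 genes with the highest correlation; exceptions are stated. The lists were written from general knowledge, and some of their genes are not reported here. Of the markers, 1 neural, 1 trophoblast and 1 blood gene were not analysed here.

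The matched pairs are libraries that share the other 2 conditions in the labels, which give no shared replicate numbers. Deviations from the group means correlated within every matched pair, from 0.282 to 0.609 for space and ground, from 0.349 to 0.488 for genotype and from 0.375 to 0.574 for duration, against means of -0.124, -0.128 and -0.152 for other pairings, so a fit with the pairs as a block was run beside each comparison.

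Alternatives were other scalings (size factors of DESeq2, or none beyond library size), all genes with any count, the exact test of edgeR and the Wald test of DESeq2 (version 1.42.0), the block, an additive model of the 3 variables, a lowess offset for the GC content of each gene alone and with the block, and each library left out. An offset on the most GC-rich 200 bases of each gene, and other scalings of the permutation test, were added after seeing the data. Gene models, GC content and overlaps came from GENCODE's annotation of mm9, which gave a GC value for 85.5% of tested genes.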

Additional observations from a re-analysis of the deposited data

Results flagged for a closer look

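Among 60 sets of 4 libraries examined (10 genes, by location, genotype and duration), a library stood far from the other 3 in 2; chance alone would set about 1 in 20 apart. Fos in space R9del D1, at 48.8 CPM, was far above the other D1 libraries (10.1 to 10.96 CPM), with a gap of 0.947 of the group's range on the log2 scale. Jund in ground R9wt D5, at 36.8 CPM, was far above the other ground libraries (9.30 to 11.6 CPM), with a gap of 0.843. Both exceed Dixon's 95% critical value for 4 libraries.

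Of 20 effects examined for opposite signs, 2 were flagged, and the share over all tested genes is not given. In both, the difference between R9del and R9wt had opposite signs at D1 and D5, in both locations. These differences were not tested, and those of Fos on the ground were small (1.03-fold and 1.09-fold). For Fos the log2 ratios were 0.04 (ground) and 2.15 (space) at D1 and -0.12 and -1.77 at D5, a mean difference of -2.04 between D5 and D1. For Jun the ground and space ratios were 0.21 and 0.44 at D1, and at D5 -0.93 and -0.56, a mean difference of -1.07.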

How the results depend on the processing

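With 1 library per condition, which library is in a group decides much. Jun and Junb passed as lower in space under every alternative run and with each library left out, and 2 to 3 of the 10 genes passed when libraries were left out. Egr2 was gained as higher in space with the block and with edgeR's exact test (adjusted p = 0.00689). It was also gained in edgeR with the additive model (adjusted p = 0.0017) and with the GC offset and block (adjusted p = 0.00341). DESeq2's Wald test called 4. In R9del against R9wt the 1 gene called became 0 without the filter on low counts and 0 with each library left out, 2 with edgeR's exact test, the replicate block, the additive model or the GC offset with the block, and 3 with the Wald test. Fosb was gained with the exact test, Egr2 with the block and the additive model, and both with the Wald test. Over all genes 695 higher and 706 lower calls were made with the exact test and 850 and 928 with the Wald test, against 213 and 158. In that comparison, the 213 higher calls became 0 without ground R9wt D5, ground R9del D1, space R9wt D1 or space R9del D1, and 694 with the block. For space against ground, 107 higher calls became 179 with the block, 195 with the exact test, 215 with the additive model, 226 with the GC offset and block, 183 with the offset on the most GC-rich window and 363 with the Wald test; they became 43 without ground R9del D5, 55 without ground R9wt D1, and 58 without ground R9del D1 or without space R9wt D5.

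The sign turned for these values, none of which passed. For space against ground, Jund was 0.023 with the GC offset and 0.12 with the GC offset and block. For R9del against R9wt, Fos was 0.051 with the block, 0.053 with the additive model and 0.090 with the GC offset and block. Fosl2 was 0.059 with library size alone, 0.14 with the block, 0.12 with the additive model, 0.012 with the GC offset, 0.17 with the GC offset and block and 0.058 with the offset on the most GC-rich window. For D5 against D1, Junb was -0.014 with the GC offset, and Egr3 0.073 with the block and 0.053 with the GC offset and block. In the interaction, Fos was -0.29 without the covariate and Egr1 -0.014 with library size alone.

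Leaving out 1 library turned more signs. Log2 fold changes then ranged from -0.37 to 1.19 for Fosl1 in space against ground. In R9del against R9wt they ranged from -0.81 to 0.92 for Fos, from -0.32 to 0.20 for Fosl2 and from -1.18 to 0.76 for Jun. In D5 against D1 they ranged from -0.64 to 1.31 for Fosb, from -1.39 to 0.0083 for Fosl1, from -0.43 to 0.98 for Junb, from -0.39 to 0.76 for Egr1, from -1.32 to 2.57 for Egr2 and from -1.31 to 0.68 for Egr3. The cause was not tested. Among the 10 genes, the block changed no call other than that of Egr2, in space against ground and in R9del against R9wt; of the other genes named, Crem lost its call as lower in space with it. Depth limits Fosb and Egr3, which had at most 117 and 41 counts in a library.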
